A study of Mus musculus with 9 samples.

Results

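The macrophage and antigen-presenting cell genes described here are 40 genes, chosen by symbol, of the 16698 genes kept from a table of left ventricular RNA in neonatal mice. All 40 had a row in the table, and 38 passed the filter on low values described below. Timd4 and Lyz1 did not pass it and are given by their reads. The genes were divided by role into 9 markers of macrophage or leukocyte identity, 4 resident macrophage genes (Lyve1, Timd4, Folr2 and Cd163), the monocyte chemokine receptor Ccr2, 3 scavenger and lectin receptors, 3 complement C1q genes, 6 genes of Fc receptors, their adaptors and Trem2, 5 genes of lysosomes, lysozymes and the phagocyte oxidase, 4 genes of class II antigen presentation (MHC II), and 5 others.

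The heart holds macrophages that settle before birth and renew themselves locally, and others that arrive from the blood as monocytes after birth or injury. Resident cells of the first kind are known for the surface proteins Lyve1, Timd4 and Folr2 and for scavenger receptors such as Cd163, while cells of recent monocyte origin are known for Ccr2. Macrophages clear dying cells, supply C1q, which starts the classical complement pathway, and present peptides to T helper cells on MHC II, which dendritic cells and B cells also carry.

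Left ventricles were taken at postnatal day 14 from ICR/CD1 mice, an outbred strain. Transverse aortic constriction (TAC) ties a ligature around the aortic arch and thereby raises the pressure load on this chamber. The 9 libraries fell into 3 groups of 3: sham surgery, for which the labels used here name no day of operation, constriction placed on postnatal day 7 (day-7 TAC) and constriction placed on postnatal day 1 (day-1 TAC). The study compared a stage at which the mouse heart regenerates with a later stage at which it does not. Age at surgery and time under constriction differed together between the TAC groups and cannot be told apart. The labels do not say whether libraries of a group came from separate animals, so the p-values below measure the spread between these libraries.

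Recovered depth was 18535202 to 26521005 reads per library. In the tissue check, 8 cardiomyocyte genes were summed on the linear deposited scale, which is close to CPM. The sum was 109000 to 115000 in sham, 92900 to 99600 in day-7 TAC and 77000 to 102000 in day-1 TAC. Sham thus lay above both operated groups, and the lowest sum, 77000, was in day-1 TAC replicate 1. The library day-1 TAC replicate 3 stood apart in its sex-linked genes, with 10532 reads of Xist against 7 to 40 elsewhere and 18 reads of Ddx3y against 3312 to 4706, and the main counts are given with and without it.

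Values are the deposited log2 values, close to log2 CPM, and a fold change is a difference of group means on that scale with its standard error (SE). A gene was called at a Benjamini-Hochberg adjusted p under 0.05 from limma fitted to all 13712 genes tested. In bulk tissue, fewer cells of a type and less RNA per cell cannot be told apart. Both comparisons with sham use the same 3 sham libraries, so their results are set side by side and not counted as separate support.

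In day-1 TAC 8 macrophage genes were higher than in sham: the 3 C1q genes, Aif1, Itgam, Fcgr1, H2-Ab1 and Pf4. Cd163 and Mertk were lower. These are 8 and 2 of the 38 members tested, which is 26.3% of them, against 34.8% of all genes called (14.3% higher and 20.5% lower). The members' median log2 fold change was 0.43, with 31 above 0, against -0.04 over all genes tested. The groups did not overlap for 13 members, against 48.0% of all genes. The called share of the members was thus below that of all genes. Scaling by total recovered reads, which raised the median of all genes by 0.1003, gave 10 members higher and 1 lower. Leaving out day-1 TAC replicate 3 kept 5 members called, leaving out day-1 TAC replicate 1 kept 4, and leaving out sham replicate 1 kept 3.

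In day-7 TAC the direction was mostly the other way. There 11 of 38 fold changes were above 0, and 2 members were called higher and 6 lower, 21.1% of those tested, against 28.9% of all genes (13.8% higher and 15.1% lower). Their median log2 fold change was -0.14, against -0.01 over all genes, and the groups did not overlap for 8 members, against 46.7% of all genes. The 6 lower members were Cd163, F13a1, Cd68 and the scavenger or lectin receptors Mrc1, Stab1 and Siglec1. Leaving out sham replicate 3 or day-7 TAC replicate 3 kept 4 members called, and leaving out day-7 TAC replicate 2 or day-1 TAC replicate 3 kept 5. Scaling the libraries by total recovered reads left 5 calls, 2 higher and 3 lower.

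Between the operated groups, 11 members were higher in day-1 TAC than in day-7 TAC and 0 were lower by limma's adjusted p. That is 28.9% of those tested, against 16.7% of all genes (6.42% higher and 10.3% lower). At an unadjusted p under 0.05, 18 members were higher and 0 lower, and with precision weights from the recovered reads 10 were higher and 0 lower at the adjusted threshold. The median of the members was 0.51, with 34 of 38 above 0, against -0.03 over all genes tested. The groups did not overlap for 14 members, against 38.9% of all genes. Leaving out replicate 3 or replicate 1 of day-1 TAC kept 7 members called, and leaving out day-7 TAC replicate 3 kept 6.

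**Figure D1:**
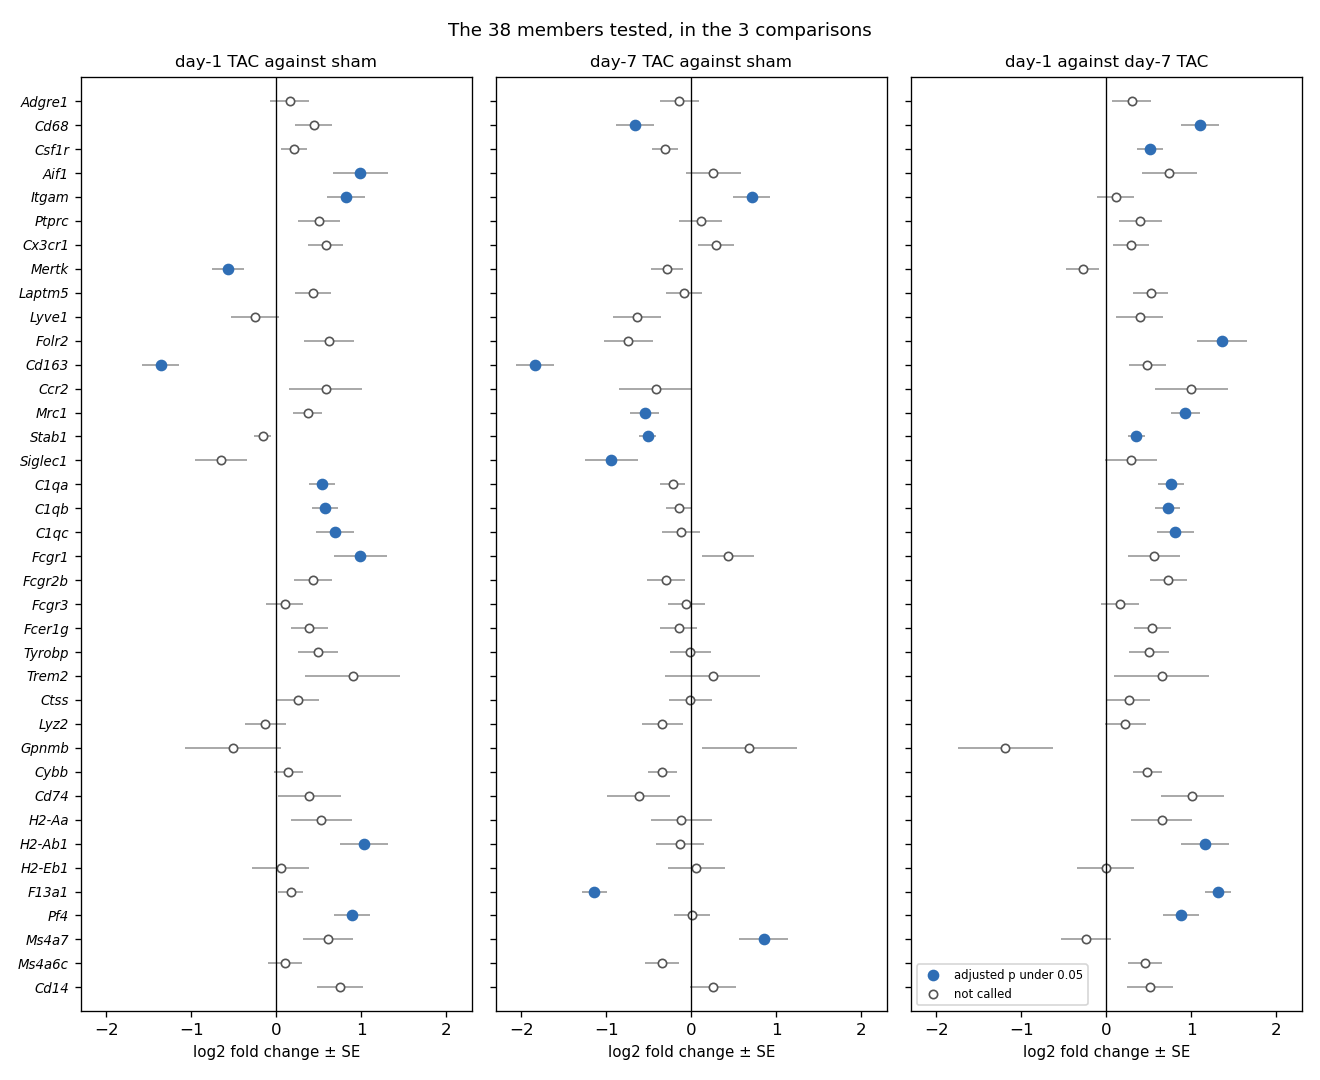
Log2 fold change ± SE of each of the 38 members tested, in day-1 TAC against sham, day-7 TAC against sham and day-1 against day-7 TAC, with filled points for an adjusted p under 0.05. Cd163 lies furthest left in both comparisons with sham, at -1.36 and -1.84, and the 11 filled points of the comparison between the TAC groups all lie to the right of 0.

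Levels were compared between genes per kilobase of exon. In sham hearts Lyz2, the lysozyme of macrophages and neutrophils, had the highest level, 5.15 ± 0.28 (SD, n = 3) on the log2 scale per kilobase, and the protease gene Ctss followed at 3.53 ± 0.30. C1qa at 3.35 ± 0.14, C1qb at 3.25 ± 0.11 and the mannose receptor Mrc1 at 3.04 ± 0.34 came next. From Ctss to Mrc1, neighbours in this order differed by less than the larger of their SDs. Among the resident genes, Lyve1 stood at 2.58 ± 0.64, Cd163 at 2.11 ± 0.03 and Folr2 at 0.64 ± 0.62 per kilobase. The class II genes were ordered Cd74, H2-Eb1, H2-Ab1 and H2-Aa, at 1.38 ± 0.59, 0.36 ± 0.55, -0.36 ± 0.30 and -1.10 ± 0.72. Ccr2 was low at -1.81 ± 0.34, and Timd4 was the lowest member at -4.21 ± 1.09. In day-7 TAC Cd163 stood lower in this order, at 0.28 per kilobase against 0.83 for Ms4a6c, a gene below it in sham hearts at 1.17.

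Of the 9 identity markers, 2 were higher and 1 lower in day-1 TAC than in sham, 1 was higher and 1 lower in day-7 TAC, and 2 were higher in day-1 than in day-7 TAC. These are 33.3%, 22.2% and 22.2% of them, against 34.8%, 28.9% and 16.7% of all genes called. Csf1r, the receptor for the growth factor that macrophages need to survive, read 4.32, 4.71 and 4.62 in the sham libraries, 4.40, 4.11 and 4.23 in day-7 TAC and 4.92, 4.42 and 4.94 in day-1 TAC. Every day-1 TAC library was above every day-7 TAC library, and sham overlapped with both. The difference between the TAC groups was 0.51 ± 0.15 on the log2 scale, or 1.43-fold (adjusted p = 0.0466), and each of 7 libraries ended this call when left out, with adjusted p from 0.0555 without sham replicate 2 to 0.137 without day-7 TAC replicate 2. The others were sham replicate 3 (0.0589), day-7 TAC replicates 1 (0.064) and 3 (0.113), and day-1 TAC replicates 1 (0.123) and 3 (0.134). It was also lost with only the TAC groups in the fit and with precision weights. Against sham the fold changes were 0.21 ± 0.15 in day-1 TAC and -0.31 ± 0.15 in day-7 TAC, with adjusted p of 0.327 and 0.161.

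Cd68, a glycoprotein of macrophage lysosomes, read 2.31, 2.64 and 2.76 in sham, 2.26, 1.87 and 1.60 in day-7 TAC and 3.27, 2.63 and 3.12 in day-1 TAC. The day-7 TAC libraries lay below all others, and a single day-1 TAC library fell within the sham range. Cd68 was 2.14-fold higher in day-1 than in day-7 TAC, a log2 difference of 1.10 ± 0.22 (adjusted p = 0.00942), a call that held with each library left out in turn. It was 0.66 ± 0.22 lower in day-7 TAC than in sham (adjusted p = 0.0463). That second call was lost without replicates 2 (adjusted p = 0.121) or 3 (0.127) of sham, 2 (0.115) or 3 (0.151) of day-7 TAC, or 3 (0.0591) of day-1 TAC. It was lost too without the filter on low values, with precision weights and with libraries scaled by total reads.

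Adgre1, which encodes the F4/80 antigen of mouse macrophages, read 2.44, 3.23 and 3.18 in sham, 3.12, 2.71 and 2.60 in day-7 TAC and 3.23, 2.78 and 3.32 in day-1 TAC. All 3 groups overlapped, and no comparison was called. Ptprc, the CD45 gene found on all nucleated blood cells, read 2.52, 3.40 and 2.94 in sham, 3.44, 3.07 and 2.67 in day-7 TAC and 3.74, 3.15 and 3.48 in day-1 TAC. These ranges also overlapped, with a fold change of 0.50 ± 0.25 in day-1 TAC (adjusted p = 0.147) and 0.11 ± 0.25 in day-7 TAC (adjusted p = 0.783).

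**Figure D2:**
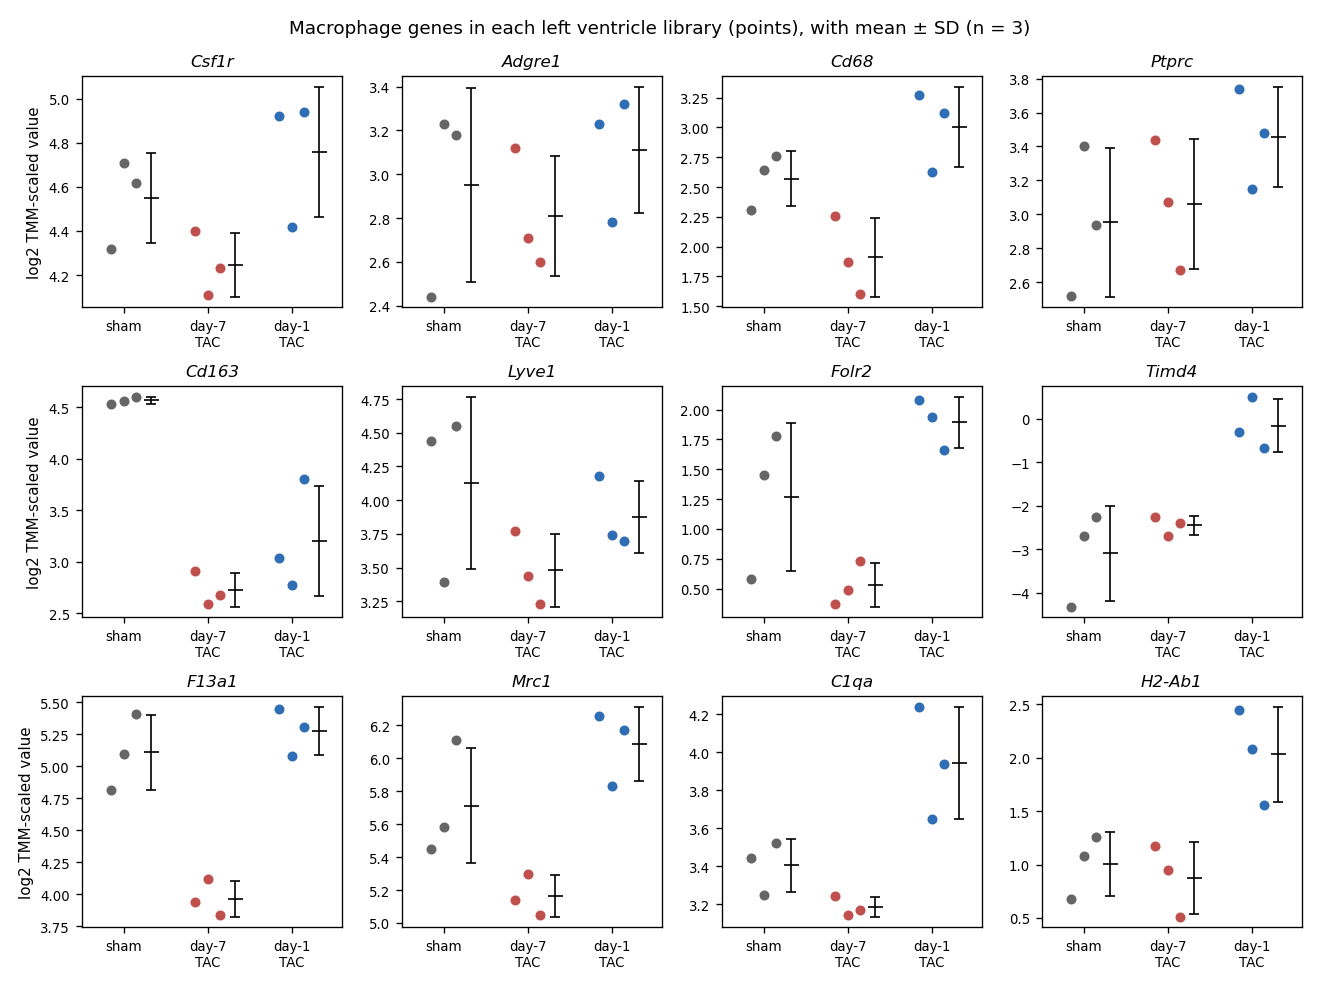
Log2 value of 12 members in each library (points, with the mean ± SD of 3 libraries beside them) in sham, day-7 TAC and day-1 TAC, with a separate vertical scale for each gene. The 3 sham values of Cd163, between 4.53 and 4.60, lie above every operated library, and the 3 day-7 TAC values of F13a1, between 3.84 and 4.12, lie below all others.

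Itgam rose in both operated groups and Aif1 in day-1 TAC. Itgam encodes the CD11b chain of the complement receptor CR3, which monocytes, macrophages and neutrophils share. It read 1.48, 1.91 and 1.96 in sham, 2.56, 2.78 and 2.16 in day-7 TAC and 2.51, 2.36 and 2.96 in day-1 TAC, so every operated library lay above every sham library. The rise was 0.82 ± 0.22 or 1.77-fold in day-1 TAC (adjusted p = 0.0157) and 0.71 ± 0.22 or 1.64-fold in day-7 TAC (adjusted p = 0.0336). The first call was lost without sham replicate 1 (adjusted p = 0.0553) or day-1 TAC replicate 3 (0.0564), and the second without replicates 1 (0.109) or 2 (0.0608) of sham or 1 (0.0871) or 2 (0.124) of day-7 TAC. Neutrophil markers also lay above sham in both operated groups. The summed level of 10 was 2.39 to 4.54 CPM in sham, 32.9 to 73.4 in day-7 TAC and 7.72, 9.64 and 34.3 in day-1 TAC. Against sham, all 8 neutrophil markers tested were higher in day-7 TAC and 5 of 8 in day-1 TAC. Of all genes, 13.8% and 14.3% were called higher there. In day-1 against day-7 TAC the median log2 fold change of these 8 markers was -1.73, against 0.11 ± 0.22 for Itgam. The part of neutrophils in the Itgam values was not tested.

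Aif1, the gene of the actin-binding protein Iba1, read 0.63, 1.57 and 1.76 in sham, 1.46, 2.02 and 1.25 in day-7 TAC and 2.67, 2.01 and 2.25 in day-1 TAC. Day-1 TAC did not overlap with sham, and day-7 TAC did. The rise in day-1 TAC was 0.99 ± 0.32, or 1.99-fold (adjusted p = 0.0337). It was no longer called without sham replicate 1, where it fell to 0.65 (adjusted p = 0.103), sham replicate 2 (0.0512), day-1 TAC replicate 1 (0.11) or day-1 TAC replicate 3 (0.0655).

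Mertk, a receptor with which macrophages engulf dying cells, moved down. Its values were 4.86, 4.37 and 4.47 in sham, 4.11, 4.16 and 4.55 in day-7 TAC and 3.76, 3.87 and 4.36 in day-1 TAC. The day-1 TAC libraries all lay below sham, the closest at 4.36 against 4.37, and the day-7 TAC libraries overlapped with both other groups. The fall in day-1 TAC was -0.57 ± 0.19, or 1.49-fold (adjusted p = 0.036), and it was not called without sham replicate 1 (0.123), sham replicate 3 (0.0523), day-1 TAC replicate 1 (0.117) or day-1 TAC replicate 2 (0.0968), nor with libraries scaled by their total reads. Cx3cr1, the fractalkine receptor, and Laptm5, a lysosomal membrane protein of blood cells, completed the identity group and were not called, with fold changes of 0.58 ± 0.21 (adjusted p = 0.0516) and 0.43 ± 0.21 (0.125) in day-1 TAC. Cx3cr1 was called there without sham replicate 3 (0.80, adjusted p = 0.0115), with the stricter filter, with precision weights and under both scalings by total reads. Without day-1 TAC replicate 2, Laptm5 was higher in day-1 TAC than in sham (0.67, adjusted p = 0.0165) and than in day-7 TAC (0.75, adjusted p = 0.0237).

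The 4 resident macrophage genes did not move together. Cd163, the receptor that takes up haemoglobin bound to haptoglobin, read 4.53, 4.56 and 4.60 in sham, 2.91, 2.59 and 2.68 in day-7 TAC and 3.04, 2.77 and 3.80 in day-1 TAC. The sham libraries lay close together and above every operated library, and the operated groups overlapped. Cd163 was 3.57-fold lower in day-7 TAC than in sham, a log2 fold change of -1.84 ± 0.22 (adjusted p = 0.00038), and 2.56-fold lower in day-1 TAC, -1.36 ± 0.22 (adjusted p = 0.00132). Both calls held in all 18 alternative fits made for each, with log2 values between -1.93 and -1.76 in day-7 TAC and between -1.65 and -1.14 in day-1 TAC. The difference between the TAC groups was 0.48 ± 0.22 (adjusted p = 0.153).

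Folr2, a folate receptor, took another course. It read 0.58, 1.45 and 1.78 in sham, 0.37, 0.49 and 0.73 in day-7 TAC and 2.08, 1.94 and 1.66 in day-1 TAC. The TAC groups did not overlap with each other, and the wide sham group overlapped with both. Folr2 was 2.57-fold higher in day-1 than in day-7 TAC, a log2 difference of 1.36 ± 0.29 (adjusted p = 0.0125), and all 18 alternatives kept that call. Against sham it was not called in day-1 TAC (0.62 ± 0.29, adjusted p = 0.121) or in day-7 TAC (-0.74 ± 0.29, adjusted p = 0.081). Without sham replicate 3 the first became a call (0.88, adjusted p = 0.0453), and without sham replicate 1 the second did (-1.08, adjusted p = 0.0109).

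Timd4, a receptor for phosphatidylserine on dying cells, was barely detected in 6 of the libraries. It had 1, 4 and 4 reads in sham, 5, 3 and 4 in day-7 TAC and 17, 29 and 12 in day-1 TAC. Every day-1 TAC library held more reads than any other library. It was not tested at the filter used. In the fit without that filter its log2 fold change was 2.93 ± 0.55 in day-1 TAC against sham (adjusted p = 0.00304), 2.29 ± 0.55 against day-7 TAC (adjusted p = 0.022) and 0.64 ± 0.55 in day-7 TAC against sham (adjusted p = 0.434), values that rest on at most 5 reads per library outside day-1 TAC.

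Lyve1, the hyaluronan receptor, is shared by resident macrophages and lymphatic endothelium. Its values were 4.44, 3.39 and 4.55 in sham, 3.77, 3.44 and 3.23 in day-7 TAC and 4.18, 3.74 and 3.70 in day-1 TAC. All groups overlapped, and sham replicate 2 was the only sham library within the operated range. The fold changes of -0.64 ± 0.28 in day-7 TAC (adjusted p = 0.109) and -0.25 ± 0.28 in day-1 TAC (adjusted p = 0.514) were not called, but without sham replicate 2 both were, at -1.01 (adjusted p = 0.00757) and -0.62 (0.0415). The summed level of 5 lymphatic endothelial markers was 199 to 233 CPM in sham, 124 to 142 in day-7 TAC and 141 to 177 in day-1 TAC. Its highest value, 233, was in sham replicate 2, the sham library with the lowest Lyve1. The sum came mostly from Prox1, with a mean log2 value of 7.35 in sham against at most 4.39 for the other markers. Pdpn did not fall, with means of 2.97 in sham, 3.06 in day-7 TAC and 3.18 in day-1 TAC. Among them Reln fell in both operated groups (-1.19 ± 0.16 and -1.08 ± 0.16 in day-7 and day-1 TAC, adjusted p = 0.000751 and 0.00101). Mmrn1 fell in day-7 TAC (-1.19 ± 0.24, adjusted p = 0.00563) and Flt4 rose in day-1 TAC (0.44 ± 0.09, adjusted p = 0.00566). Prox1, which cardiomyocytes also express, fell in both operated groups (-0.87 ± 0.12 and -0.63 ± 0.12 in day-7 and day-1 TAC). The part of these cells in the Lyve1 values was not tested.

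The resident genes were also set against Csf1r within each library. Cd163 minus Csf1r was 0.21, -0.15 and -0.03 in sham, -1.49, -1.52 and -1.55 in day-7 TAC and -1.88, -1.65 and -1.14 in day-1 TAC. Cd163 thus stood at the level of Csf1r in sham hearts, by a mean of 0.01 ± 0.18 (SD, n = 3) without length correction, and at -1.52 ± 0.03 and -1.55 ± 0.38 relative to it in the operated groups, with no overlap with sham. Folr2 minus Csf1r was -3.28 ± 0.45 in sham, -3.72 ± 0.28 in day-7 TAC and -2.86 ± 0.40 in day-1 TAC, where the TAC groups did not overlap. Timd4 minus Csf1r was higher in every day-1 TAC library, from -5.62 to -3.91, than in any other, from -8.65 to -6.63. Lyve1 minus Csf1r overlapped between all groups. These ratios are descriptions, and no test was made of them.

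**Figure D3:**
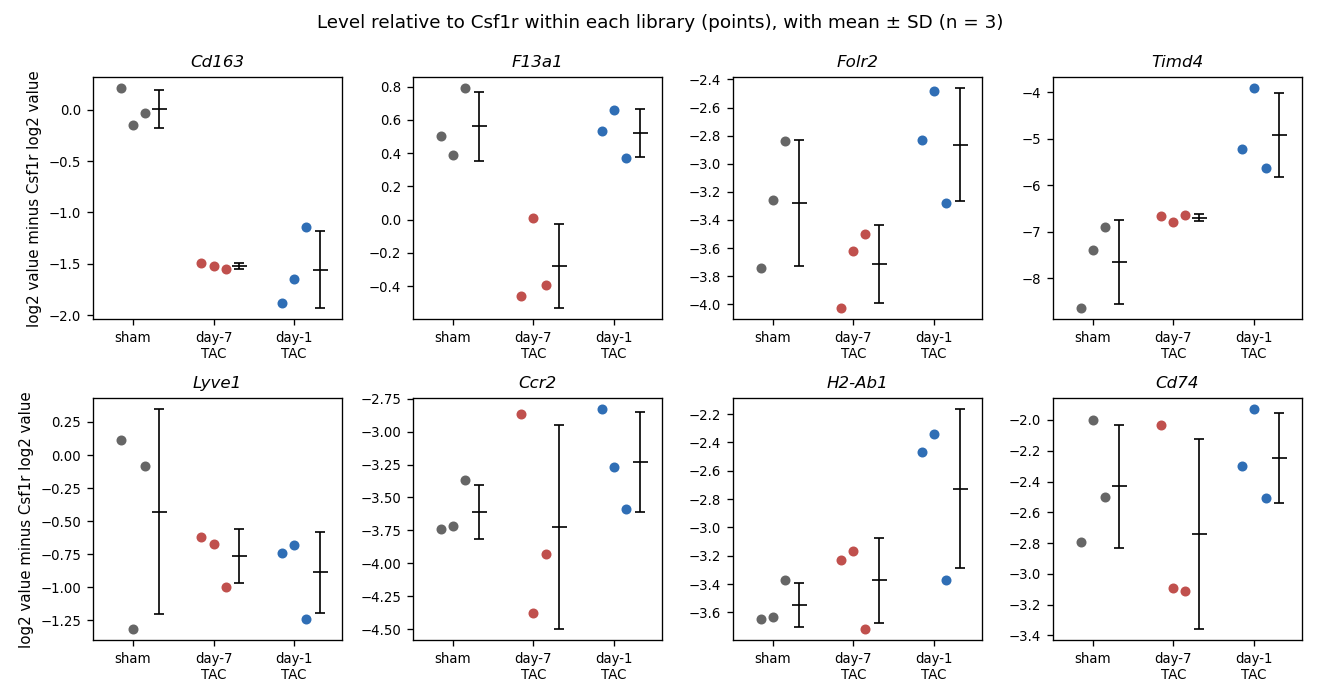
Log2 value of 8 members minus the log2 value of Csf1r in the same library (points, with the mean ± SD of 3 libraries beside them), in sham, day-7 TAC and day-1 TAC. The 3 sham points of Cd163 lie near 0 and all 6 operated points lie between -1.88 and -1.14, while the Lyve1, Ccr2, H2-Ab1 and Cd74 points of the groups overlap.

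Ccr2, the receptor that draws monocytes from marrow and blood towards Ccl2, was low and variable. It read 0.58, 0.99 and 1.26 in sham, 1.53, -0.26 and 0.30 in day-7 TAC and 2.08, 1.15 and 1.34 in day-1 TAC, from 16 to 89 reads per library. The groups overlapped throughout. The fold change was 0.58 ± 0.43 in day-1 TAC (adjusted p = 0.319), -0.42 ± 0.43 in day-7 TAC (adjusted p = 0.485) and 1.00 ± 0.43 between the TAC groups (adjusted p = 0.129). Without day-7 TAC replicate 1, which held 69 reads against 16 and 26 in the other 2 libraries of its group, the last became 1.51 (adjusted p = 0.0302). The spread of Ccr2 was wide, with an SE of 0.43 against 0.22 for Cd163, so that a change of moderate size was not detectable.

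The scavenger and lectin receptors were lower in day-7 TAC, all 3 of them, where 15.1% of all genes were called lower. Mrc1, the mannose receptor of resident and repair-type macrophages, read 5.45, 5.58 and 6.11 in sham, 5.14, 5.30 and 5.05 in day-7 TAC and 6.26, 5.83 and 6.17 in day-1 TAC. The day-7 TAC libraries lay below all others. Mrc1 was 0.55 ± 0.17 lower than in sham in day-7 TAC, -0.55 on the log2 scale or 1.47-fold (adjusted p = 0.0303), and 1.90-fold higher in day-1 than in day-7 TAC (0.93 ± 0.17, adjusted p = 0.0063). The call between the TAC groups held in all 19 alternatives. The fall against sham was lost without sham replicate 3 (-0.36, adjusted p = 0.0761) or replicates 1 (0.0747) or 3 (0.0958) of day-7 TAC, and with libraries scaled by total recovered reads. In day-1 TAC against sham Mrc1 was called only without sham replicate 3 (0.57, adjusted p = 0.011) or day-1 TAC replicate 2 (0.50, adjusted p = 0.049).

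Stab1, the scavenger receptor stabilin-1, which sinusoidal and some other endothelial cells also express, read 5.46, 5.68 and 5.62 in sham, 5.0, 5.07 and 5.14 in day-7 TAC and 5.32, 5.34 and 5.61 in day-1 TAC. Here too the day-7 TAC libraries were the lowest 3. Stab1 was 1.43-fold lower in day-7 TAC than in sham (-0.51 ± 0.10, adjusted p = 0.00377), in every alternative run. It was 0.35 ± 0.10 higher in day-1 than in day-7 TAC (adjusted p = 0.0326), a call lost without day-7 TAC replicates 1 (0.103), 2 (0.0819) or 3 (0.0596) or without day-1 TAC replicate 3 (0.0943).

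Siglec1, the sialic acid receptor sialoadhesin, was low, with 14 to 54 reads per library. It read 0.32, 1.08 and 0.98 in sham, 0.32, -0.18 and -0.59 in day-7 TAC and 0.19, 0.18 and 0.05 in day-1 TAC. All day-1 TAC libraries were below sham, while a day-7 TAC library matched the lowest sham library. The fall was called in day-7 TAC (-0.94 ± 0.31, adjusted p = 0.0438) and not in day-1 TAC (-0.65 ± 0.31, adjusted p = 0.127), and the difference between those groups was 0.29 ± 0.31 (adjusted p = 0.555). The call in day-7 TAC was lost when any of 6 libraries was left out: sham replicates 2 (0.147) or 3 (0.117), day-7 TAC replicates 2 (0.105) or 3 (0.14), or day-1 TAC replicates 2 (0.0577) or 3 (0.0547). It was also lost with only those groups in the fit and with scaling by total recovered reads.

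The 3 genes of complement C1q, the A, B and C chains of a single secreted protein, were higher in day-1 TAC than in both other groups. They lie beside each other on the minus strand of chromosome 4 of GRCm38 (mm10), C1qb at 136880129 to 136886187, C1qc at 136889804 to 136893065 and C1qa at 136895917 to 136898803. Because they moved together, the 250 bases before the start of C1qb (chr4:136886201-136886450, minus strand) and of C1qc (chr4:136892915-136893164, minus strand) are shown from RefSeq on GRCm38.p6, with capitals for the letters of a binding site of the myeloid factor PU.1 and its ETS relatives, GAGGAAGT, searched on both strands.
C1qb: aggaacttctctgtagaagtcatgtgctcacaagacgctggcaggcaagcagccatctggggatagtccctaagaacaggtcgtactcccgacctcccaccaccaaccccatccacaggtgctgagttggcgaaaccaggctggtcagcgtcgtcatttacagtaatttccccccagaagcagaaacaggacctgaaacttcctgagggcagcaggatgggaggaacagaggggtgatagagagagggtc
C1qc: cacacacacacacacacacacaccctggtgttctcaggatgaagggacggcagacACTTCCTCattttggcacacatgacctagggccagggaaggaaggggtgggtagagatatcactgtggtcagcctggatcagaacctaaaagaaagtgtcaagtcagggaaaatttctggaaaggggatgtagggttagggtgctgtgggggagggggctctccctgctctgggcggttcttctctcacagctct
The C1qc window holds the opposite-strand form of those letters, beginning 195 bases before the RefSeq start, and the C1qb window holds no exact match. Other forms of the site were not searched, so it cannot be said that C1qb lacks one. The RefSeq start of C1qc lies inside the span given above, which is from GENCODE, so part of its window lies within that span. Of 32851 such windows of mouse genes, 2.44% hold this motif, and of 36 windows of 31 members 2 did, those of C1qc and of Pf4.

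C1qa read 3.44, 3.25 and 3.52 in sham, 3.24, 3.14 and 3.17 in day-7 TAC and 4.24, 3.65 and 3.94 in day-1 TAC. Every day-1 TAC library was above every other library, and every day-7 TAC library was below sham. C1qa was 1.46-fold higher in day-1 TAC than in sham (0.54 ± 0.15, adjusted p = 0.0161) and 1.70-fold higher than in day-7 TAC (0.76 ± 0.15, adjusted p = 0.00799). The second call held in all 19 alternatives, and the first was lost without sham replicate 2 (0.0649) or day-1 TAC replicate 1 (0.40, adjusted p = 0.0505).

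C1qb read 3.25, 3.44 and 3.44 in sham, 3.35, 3.46 and 2.87 in day-7 TAC and 3.99, 3.81 and 4.03 in day-1 TAC. C1qc read 2.63, 2.78 and 2.94 in sham, 2.96, 2.78 and 2.26 in day-7 TAC and 3.68, 3.02 and 3.72 in day-1 TAC. For both, the day-1 TAC libraries lay above all others and day-7 TAC overlapped with sham. The rise against sham was 0.57 ± 0.15 for C1qb (adjusted p = 0.0165) and 0.69 ± 0.22 for C1qc (adjusted p = 0.0341), and against day-7 TAC 0.72 ± 0.15 (adjusted p = 0.0127) and 0.81 ± 0.22 (adjusted p = 0.0332). The C1qb call against sham was lost without sham replicate 1 (0.0546) or day-1 TAC replicate 3 (0.0517), and the call between the TAC groups held with each library left out in turn. The C1qc calls were lost without day-1 TAC replicate 1 (0.105 against sham and 0.0907 between the TAC groups) or replicate 3 (0.109 and 0.1), without sham replicates 1 (0.0991) or 2 (0.0834) against sham, and without day-7 TAC replicates 2 (0.0655) or 3 (0.108) or with only the TAC groups in the fit between the TAC groups. In day-7 TAC against sham, limma called 0 of the 3 genes, with 0 at an unadjusted p under 0.05 and fold changes of -0.22, -0.15 and -0.12. Of all genes, 28.9% were called there.

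Summed, the C1q genes reached 26.5 to 30.0 CPM in sham, 21.1 to 27.4 in day-7 TAC and 34.8 to 47.6 in day-1 TAC. Relative to Csf1r the separation from sham was smaller, 0.34 for C1qa, 0.37 for C1qb and 0.49 for C1qc on the log2 scale. Day-1 TAC and sham then overlapped for C1qa and did not for C1qb and C1qc. Between the TAC groups C1qa, C1qb and C1qc all overlapped relative to Csf1r, with differences of 0.25, 0.21 and 0.3.

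Of the 6 genes of Fc receptors, their signalling adaptors and Trem2, 1 was called, in day-1 TAC against sham. That is 16.7% of them, against 34.8% of all genes called there. Fcgr1, the high-affinity receptor for IgG, read 0.07, 0.91 and 0.59 in sham, 1.25, 1.06 and 0.56 in day-7 TAC and 2.0, 1.11 and 1.43 in day-1 TAC. Day-1 TAC lay above sham without overlap, and day-7 TAC overlapped with both. Its rise in day-1 TAC was 0.99 ± 0.31, or 1.99-fold (adjusted p = 0.03), and was lost without sham replicates 1 (0.1) or 3 (0.0542) or without day-1 TAC replicates 1 (0.107) or 3 (0.0572). The low-affinity receptors Fcgr2b, which inhibits, and Fcgr3, which activates, the shared signalling chain Fcer1g, the adaptor Tyrobp and the lipid receptor Trem2 had fold changes from 0.10 for Fcgr3 to 0.90 ± 0.56 for Trem2 in day-1 TAC, and from -0.30 to 0.25 in day-7 TAC, none of them called. In day-7 TAC and between the TAC groups limma called 0 of the 6, with 0 and 2 at an unadjusted p under 0.05. Of all genes, 28.9% and 16.7% were called there. Fcgr2b came closest between the TAC groups, at 0.73 ± 0.22 (adjusted p = 0.0504). It was called without day-7 TAC replicate 1 (0.96, adjusted p = 0.0227) or day-1 TAC replicate 2 (0.90, adjusted p = 0.0352), with a pseudocount of 0.5 added and under both scalings by total reads.

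The genes of lysosomes, lysozymes and the oxidase were not called in any comparison with all 9 libraries. Lyz2 read 5.30, 5.85 and 5.47 in sham, 5.70, 4.89 and 5.02 in day-7 TAC and 5.66, 4.96 and 5.64 in day-1 TAC, with all groups overlapping and fold changes of -0.13 ± 0.24 and -0.34 ± 0.24 in day-1 and day-7 TAC. Lyz1, its near-identical neighbour on chromosome 10, had 2 to 8 reads in each library, and reads of these genes could be split between them by the counting, so both are uncertain. Ctss, the protease that trims the invariant chain, and Cybb, the catalytic subunit of the oxidase, had fold changes of 0.25 ± 0.25 and 0.14 ± 0.17 in day-1 TAC and -0.01 ± 0.25 and -0.34 ± 0.17 in day-7 TAC. Gpnmb, a glycoprotein of lipid-laden macrophages, spread widely in day-7 TAC, from -0.26 to 2.02. By limma 0 of the 4 tested genes passed in each comparison, with 1 at an unadjusted p under 0.05 (Cybb, with 0.48 ± 0.17 in day-1 against day-7 TAC). Of all genes, 34.8%, 28.9% and 16.7% were called in day-1 TAC, in day-7 TAC and between the TAC groups. Between the TAC groups Cybb was called without day-1 TAC replicate 2 (0.66, adjusted p = 0.0267), and Gpnmb without day-7 TAC replicate 2 (-1.82, adjusted p = 0.0428).

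Of the 4 class II genes, H2-Ab1 was called and the others were not. That is 25.0% of them in day-1 TAC and between the TAC groups, against 34.8% and 16.7% of all genes. H2-Aa and H2-Ab1 encode the chains of the I-A molecule, H2-Eb1 a chain of I-E, and Cd74 the invariant chain that guides them to the endosome. The 250 bases before the starts of H2-Aa (chr17:34287824-34288073, minus strand) and H2-Eb1 (chr17:34305617-34305866, plus strand), from RefSeq on GRCm38.p6, are shown since class II promoters are known for the X box, which can include a cyclic AMP response element, and the Y box, and the results differed between members of this set. Capitals mark the Y box letters CTGATTGG and the response element letters TGACGTCA, searched on both strands.
H2-Aa: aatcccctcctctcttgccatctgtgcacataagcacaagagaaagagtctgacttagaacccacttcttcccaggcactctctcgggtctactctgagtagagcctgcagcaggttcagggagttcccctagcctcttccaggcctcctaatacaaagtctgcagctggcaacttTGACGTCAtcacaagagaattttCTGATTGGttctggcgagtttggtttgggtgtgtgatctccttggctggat
H2-Eb1: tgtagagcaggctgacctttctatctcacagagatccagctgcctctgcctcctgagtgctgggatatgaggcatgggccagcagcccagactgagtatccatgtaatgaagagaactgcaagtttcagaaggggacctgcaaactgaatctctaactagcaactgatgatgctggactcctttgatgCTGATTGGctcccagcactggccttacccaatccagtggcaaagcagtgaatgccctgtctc
The Y box letters begin 51 bases before the start in H2-Aa and 62 bases before it in H2-Eb1, and the response element begins 74 bases before the start in H2-Aa. The motifs do not overlap each other. Of all 32851 windows, 3.83% hold the Y box letters and 1.55% the response element, and among the 36 windows of members 2 and 1 did. For H2-Ab1 and Cd74 no window is shown.

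H2-Ab1 read 0.68, 1.08 and 1.26 in sham, 1.17, 0.95 and 0.51 in day-7 TAC and 2.45, 2.08 and 1.56 in day-1 TAC. The day-1 TAC libraries were above all others, and sham and day-7 TAC overlapped. Relative to Csf1r, the H2-Ab1 values overlapped between all groups, with day-1 TAC and sham meeting at -3.37. Relative to Adgre1, day-1 TAC overlapped with neither other group. Its lowest value was -1.76, against -1.77 for the highest in sham and in day-7 TAC. H2-Ab1 was 2.04-fold higher in day-1 TAC than in sham (1.03 ± 0.28, adjusted p = 0.0163) and 2.23-fold higher than in day-7 TAC (1.16 ± 0.28, adjusted p = 0.0192). The first call was lost without sham replicate 1 (0.0571) or day-1 TAC replicate 1 (0.0606), the second without day-7 TAC replicates 2 (0.0501) or 3 (0.0701) or day-1 TAC replicates 1 (0.0588) or 2 (0.0528).

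Its partner H2-Aa read 0.00, 1.32 and 1.16 in sham, 1.17, 0.54 and 0.41 in day-7 TAC and 1.13, 1.30 and 1.64 in day-1 TAC, and H2-Eb1 read 1.56, 1.70 and 0.69, then 1.83, 1.09 and 1.22, then 1.78, 1.51 and 0.82 in the same order. Both overlapped between all groups. Against sham, H2-Aa changed by 0.53 ± 0.36 in day-1 TAC (adjusted p = 0.275) and -0.12 ± 0.36 in day-7 TAC, and H2-Eb1 by 0.05 ± 0.34 and 0.06 ± 0.34. Cd74 read 1.53, 2.71 and 2.13 in sham, 2.37, 1.02 and 1.13 in day-7 TAC and 2.62, 2.49 and 2.43 in day-1 TAC, where the TAC groups did not overlap but the difference of 1.01 ± 0.37 was not called (adjusted p = 0.0841). Without day-7 TAC replicate 1, Cd74 was higher in day-1 than in day-7 TAC (1.44, adjusted p = 0.0206) and lower in day-7 TAC than in sham (-1.05, adjusted p = 0.0325). The summed class II level was 8.44 to 14.4 CPM in sham, 7.26 to 13.2 in day-7 TAC and 13.2 to 17.2 in day-1 TAC.

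Dendritic cells and B cells also carry class II, and most of their markers had few reads. Among 9 dendritic cell markers, Flt3, Itgax, Xcr1, Cd209a, Ccr7 and Siglech each had at most 18 reads in any library. The receptor gene Clec9a, with 15 to 37 reads, was lower in both operated groups (-0.84 ± 0.27 and -0.98 ± 0.27 in day-1 and day-7 TAC, adjusted p = 0.0348 and 0.0212). The list's sum, 28.3 to 41.7 CPM over all libraries, came mostly from Zbtb46, which endothelial cells also express. The B cell markers Cd79a, Cd79b, Ms4a1 and Pax5 had 2 to 30 reads per library, and Ebf1, which stromal cells also express, had 1083 to 1607. The part of these cells in the class II values was not tested. Of 9 T and NK cell markers, Cd4 had 10 to 31 reads per library and the others at most 20.

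**Figure D4:**
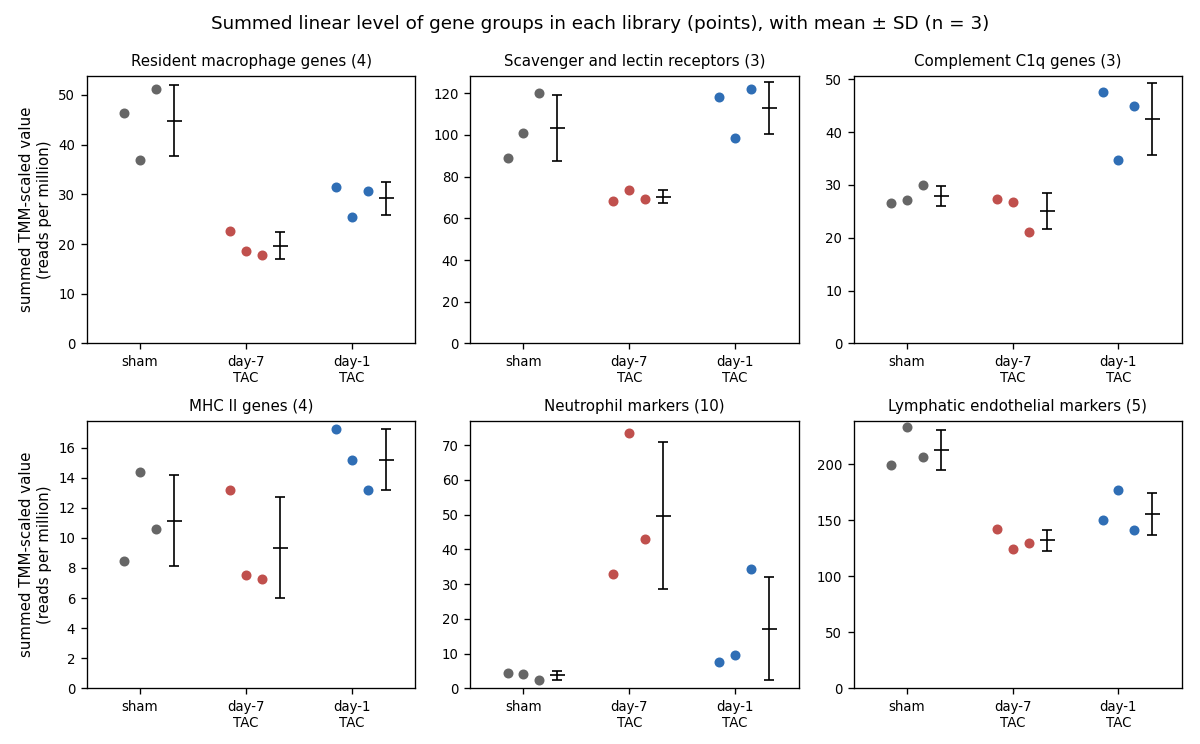
Summed linear level, in CPM on the deposited scale, of 4 resident, 3 scavenger and lectin, 3 C1q and 4 class II genes and of 10 neutrophil and 5 lymphatic endothelial markers in each library (points, with mean ± SD of 3 libraries), in sham, day-7 TAC and day-1 TAC. The resident sum is 37.0 to 51.2 in sham, 17.7 to 22.7 in day-7 TAC and 25.4 to 31.4 in day-1 TAC with no overlap. It comes mostly from Cd163 and Lyve1, with sham mean log2 values of 4.56 and 4.12 against 1.27 for Folr2 and -3.09 for Timd4. The 4 genes did not move together. The neutrophil sum is lowest in sham.

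Of the remaining genes, F13a1 separated day-7 TAC most clearly. F13a1, the A subunit of coagulation factor XIII, which macrophages, monocytes and megakaryocytes make, read 4.82, 5.10 and 5.41 in sham, 3.94, 4.12 and 3.84 in day-7 TAC and 5.45, 5.08 and 5.31 in day-1 TAC. All day-7 TAC libraries lay below all others, and day-1 TAC overlapped with sham. F13a1 was 2.21-fold lower in day-7 TAC than in sham (-1.14 ± 0.15, adjusted p = 0.000628) and 2.49-fold higher in day-1 than in day-7 TAC (1.31 ± 0.15, adjusted p = 0.000891), in every alternative run. The change in day-1 TAC against sham was 0.17 ± 0.15 (adjusted p = 0.404). Relative to Csf1r, F13a1 was at 0.56 ± 0.20 in sham, -0.28 ± 0.25 in day-7 TAC and 0.52 ± 0.14 in day-1 TAC, and the day-7 TAC libraries again lay below the rest.

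Pf4, a chemokine of platelets that resident macrophages also make, read 1.83, 1.92 and 2.44 in sham, 2.05, 2.31 and 1.85 in day-7 TAC and 3.16, 2.67 and 3.02 in day-1 TAC. The day-1 TAC libraries were above all others. The rise was 1.85-fold against sham (0.89 ± 0.21, adjusted p = 0.00834), kept in all 18 alternatives, and 1.84-fold against day-7 TAC (0.88 ± 0.21, adjusted p = 0.0178). The latter was lost without day-7 TAC replicates 1 (0.0532) or 3 (0.0659) or day-1 TAC replicates 1 (0.0531) or 3 (0.0516). Of 4 platelet markers, summing to 2.93 to 3.74 CPM in sham, 3.56 to 4.16 in day-7 TAC and 3.98 to 7.62 in day-1 TAC, Ppbp had 2 to 8 reads in sham, 2 to 10 in day-7 TAC and 5 to 28 in day-1 TAC, and Itga2b was not called. Their part in the Pf4 values was not tested.

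Ms4a7, a membrane protein of macrophages, read 0.48, 1.28 and 0.74 in sham, 2.10, 1.23 and 1.71 in day-7 TAC and 1.47, 1.11 and 1.75 in day-1 TAC. Only the highest sham library reached the operated range. Its rise in day-7 TAC was 0.85 ± 0.29 (adjusted p = 0.0491), and 7 of the 9 libraries ended that call when left out: sham replicates 1 (0.148) and 3 (0.108), day-7 TAC replicates 1 (0.164) and 3 (0.113), and day-1 TAC replicates 1 (0.0539), 2 (0.0513) and 3 (0.053). Fits without the filter, with only those groups or with precision weights did not call it either. Its relative Ms4a6c was not called, with fold changes of 0.10 ± 0.20 and -0.34 ± 0.20 in day-1 and day-7 TAC. Cd14, the co-receptor for bacterial lipopolysaccharide, lay above sham in every day-1 TAC library, by 0.75 ± 0.27 (adjusted p = 0.0508), and it was called in 6 of 17 alternatives, among them the fit without day-7 TAC replicate 3 (0.75, adjusted p = 0.0218).

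Genes that act around these cells were taken from lists by role. Of 12 tested genes of the Csf1 axis and macrophage transcription factors, 16.7% were called in each comparison, against 34.8%, 28.9% and 16.7% of all genes in day-1 TAC, in day-7 TAC and between the TAC groups. In day-1 TAC 2 were higher: the growth factor Csf1, the ligand of Csf1r, by 0.87 ± 0.12 (adjusted p = 0.000675), and the transcription factor Runx1 by 0.92 ± 0.23 (adjusted p = 0.0121). Csf1 (0.58 ± 0.12, adjusted p = 0.0105) and Maf (0.49 ± 0.12, adjusted p = 0.0219) were also higher in day-1 than in day-7 TAC. In day-7 TAC, Csf2rb, the shared chain of the receptors for GM-CSF and related cytokines, was higher (0.74 ± 0.23, adjusted p = 0.0369) and the transcription factor Maf, which resident macrophages express among other cells, was lower (-0.62 ± 0.12, adjusted p = 0.00443). Spi1, which encodes PU.1, was not called in any comparison.

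Of 13 tested genes of monocyte chemokines and adhesion, 6 were higher in day-1 TAC and 2 in day-7 TAC. These are 46.2% and 15.4% of them, against 34.8% and 28.9% of all genes called in either direction and 14.3% and 13.8% called higher. Ccl2, the ligand of Ccr2, rose by 1.89 ± 0.44 (adjusted p = 0.00878) and 1.56 ± 0.44 (adjusted p = 0.0249) in day-1 and day-7 TAC, from 9 to 45 reads in sham to 57 to 108 in the operated groups, while Ccr2 itself was not called. Cx3cl1, the ligand of Cx3cr1, rose by 1.64 ± 0.33 in day-1 TAC (adjusted p = 0.00433), as did Cxcl12, which holds leukocytes in marrow, by 0.62 ± 0.17 and Icam1, the endothelial adhesion molecule, by 0.42 ± 0.13. Vcam1, another adhesion molecule, rose in day-7 TAC by 0.51 ± 0.13 (adjusted p = 0.0154), and the chemokine Ccl9 was higher in day-1 than in day-7 TAC by 1.31 ± 0.27 (adjusted p = 0.01).

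Of 10 tested genes of class II regulation and costimulation, 1 was called in day-1 TAC and 2 in day-7 TAC. Both shares were below those of all genes called there, 34.8% and 28.9%. The class II promoter factor Rfx5 was higher in both operated groups (0.86 ± 0.16 and 0.61 ± 0.16 in day-1 and day-7 TAC, adjusted p = 0.0028 and 0.0178), and Cd83, an activation marker, was lower in day-7 TAC (-0.73 ± 0.20, adjusted p = 0.0204). The lysosomal reductase Ifi30 was higher in day-1 than in day-7 TAC (0.51 ± 0.16, adjusted p = 0.049). Ciita, the master regulator of class II genes, was not tested at 5 to 21 reads per library. Neither was the costimulatory ligand gene Cd80, which the fit without the filter called in day-1 TAC (1.05 ± 0.34, adjusted p = 0.0399). Of 25 genes of phagocytosis and lysosomes, many of which cardiomyocytes and other cells also express, 6 were higher and 4 lower in day-1 TAC and 3 and 3 in day-7 TAC. These 10 and 6 called genes of 25 stand beside 34.8% and 28.9% of all genes. The lysosomal proteases Ctsz (0.74 ± 0.09, adjusted p = 0.000392) and Ctsb (0.53 ± 0.09, adjusted p = 0.0019) rose in day-1 TAC, and were also higher there than in day-7 TAC. The lysosomal membrane gene Lamp2 fell in day-1 and day-7 TAC (-0.50 ± 0.08 and -0.32 ± 0.08, adjusted p = 0.0014 and 0.0141), and so did the fatty acid and scavenger receptor Cd36 (-0.72 ± 0.12 and -0.50 ± 0.12, adjusted p = 0.00159 and 0.0118). Mfge8, a bridge between phagocytes and dying cells, rose in both operated groups (0.31 ± 0.11 and 0.43 ± 0.11 in day-1 and day-7 TAC, adjusted p = 0.0466 and 0.0146). Gas6, the ligand of Mertk and Axl, fell in day-1 TAC (-0.33 ± 0.08, adjusted p = 0.0102) and rose in day-7 TAC (0.38 ± 0.08, adjusted p = 0.00636), a difference of -0.71 ± 0.08 between them (adjusted p = 0.000824).

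Among 8 tested genes of monocyte and inflammatory activation, 3 were higher in day-1 TAC and 4 in day-7 TAC. These are 37.5% and 50.0% of them, against 34.8% and 28.9% of all genes called in either direction and 14.3% and 13.8% called higher. The called genes were S100a8, S100a9, Fn1 and Thbs1, and S100a8 and S100a9 were also on the neutrophil list. S100a8, a gene of neutrophils and monocytes, rose by 2.22 ± 0.65 in day-1 TAC and 4.04 ± 0.65 in day-7 TAC, and its partner S100a9 by 3.76 ± 0.64 in day-7 TAC. The matrix genes Thbs1 (1.86 ± 0.28 and 1.23 ± 0.28 in day-1 and day-7 TAC) and Fn1 (0.64 ± 0.17 and 0.67 ± 0.17), made by many cells, rose in both. The monocyte marker Ly6c2 was not called. The cytokine genes Il1b, Tnf and Il6 had at most 36 reads in any library and were not tested at the filter used. Il6 had 2 to 3 reads in sham, 3 to 12 in day-7 TAC and 9 to 25 in day-1 TAC, and in the fit without that filter its log2 fold change was 2.89 ± 0.54 in day-1 TAC against sham (adjusted p = 0.00296) and 1.31 ± 0.54 in day-7 TAC (adjusted p = 0.104). That fit also called Chil3, a chitinase-like gene of monocytes and neutrophils, in day-7 TAC (2.80 ± 0.79, adjusted p = 0.026). Of 6 tested iron and haem genes, to which Cd163 is linked by function, ferritin heavy chain Fth1 was lower in day-1 TAC (-0.34 ± 0.11, adjusted p = 0.0333), and Hmox1, the haem-degrading enzyme induced by haemoglobin uptake, was not called.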

How the data were processed

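RNA-seq of 9 left ventricle libraries was analysed from log2 values that the authors deposited for 16710 rows of gene symbols, with a header that calls them TMM-scaled. The submitters' processing notes name Trim Galore, STAR, edgeR and mm10. Versions, annotation and strand setting were not given in the sources used here. Per the labels' protocols, mRNA was bead-purified from total RNA and libraries were made with ScriptSeq v2. In every library the linear values were whole multiples of 1 step within 0.001, so reads were recovered by setting the lowest value to 1 read. If the authors had added 1 to each value first, every recovered number would be 1 too high. Depth was 18535202 to 26521005 reads per library, which limits genes with few reads. Rows of 3 repeated symbols (12 rows) were left out, which kept 16698 genes. In the header 2 sham columns share a name, so their numbers 2 and 3 follow column order.

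A gene was tested if it was above 0 on the log2 scale in 3 or more libraries, which left 13712. The test was limma 3.58.1 in R 4.3.3, two-sided, with an intensity trend and all 9 libraries in 1 fit, and Benjamini-Hochberg adjustment covered all 13712 genes. The steps were tested on simulated data. The members and lists were chosen with earlier results of these data known. Values per library are printed for members called in at least 1 comparison and for a fixed set of resident, class II, C1q, lysozyme and identity genes, and other members by fold change or range. Members of the other lists are named where called, at most 4 per list and comparison by smallest p, also with values in the other comparisons, and with a few uncalled genes added after their values were seen. Coordinates and exon lengths are from GENCODE release M21, which held all 40 members. Promoter windows from RefSeq matched 31 of 40. No library was a copy of another of its group, since chi-square values between them were 10.3 to 30.2 per gene. Alternatives were a pseudocount of 0.5 added to the linear values, other filters, other scalings, 2 groups only, each library left out, the replicate number as a block, and, added after seeing the data, precision weights and scaling by total reads.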

Additional observations from a re-analysis of the deposited data

Results flagged for a closer look

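For 11 members the effects of TAC at the 2 ages differed by the direct test between the TAC groups, which is also the difference of their changes from the shared sham libraries. The differences, day-1 minus day-7 TAC on the log2 scale by limma, were 1.36 for Folr2, 1.31 for F13a1, 1.16 for H2-Ab1, 1.10 for Cd68, 0.93 for Mrc1, 0.88 for Pf4, 0.81 for C1qc, 0.76 for C1qa, 0.72 for C1qb, 0.51 for Csf1r and 0.35 for Stab1. In each of the 11 genes all 3 day-1 TAC libraries lay above all 3 day-7 TAC libraries. The genes were chosen by the call from these same libraries, so this separation adds no support. Over all genes tested, these groups did not overlap for 38.9%, and over the 38 members tested for 14. The Csf1r call was lost in 7 of 9 fits with a library left out. The age at surgery and the time since surgery cannot be told apart in these differences.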

How the results depend on the processing

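The calls for Cd163 (both TAC groups against sham), F13a1 (in day-7 TAC and in the direct comparison), Stab1 in day-7 TAC, Pf4 in day-1 TAC, and Cd68, Folr2, Mrc1 and C1qa between the TAC groups were kept in every alternative run. No call of a member reversed, where direction was compared only for results past the threshold. Genes with few reads, such as Timd4, Lyz1, Siglec1 and Ccr2, are limited by depth. The planned edgeR and DESeq2 fits were not run, because the deposited unit is log2, and precision weights took their place.

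With each library left out in turn, the members called ranged from 3 to 11 in day-1 TAC against sham (2 to 10 higher, 1 to 3 lower), from 4 to 7 in day-7 TAC against sham (0 to 1 higher, 3 to 7 lower) and from 6 to 13 between the TAC groups (6 to 13 higher, 0 to 1 lower). Scaling by total recovered reads, or by the total outside the 100 highest genes, raised the median of all genes in day-1 TAC minus sham by 0.1003 or 0.0852 and left 1 member lower there in place of 2, with 10 higher in place of 8. Scaling by total reads left 5 members called in day-7 TAC against sham in place of 8, with 3 lower in place of 6. The higher members in day-7 TAC were 1 in place of 2 without a filter, with the stricter filter, with only the 2 groups compared and with precision weights. The cause was not tested.

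Same-numbered TAC libraries did not deviate together, with correlations of -0.22, -0.11 and -0.04 across genes, and no library correlated best with its own number. The replicate block on the 6 TAC libraries left 7 members called, all higher, in place of 11, without Stab1, C1qb, C1qc and Pf4, and 1178 in place of 2062 of 13481 genes.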
